A study of Sus scrofa and Bos taurus with 31 samples.

Results

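The 7 genes described here encode proteins of blood clotting: the fibrinogen chains FGA, FGB and FGG, the protease precursors F2 (prothrombin) and PLG (plasminogen), and the protease inhibitors SERPINC1 (antithrombin) and SERPIND1 (heparin cofactor II). They were taken by symbol from the RefSeq annotation of the pig genome build Sscrofa11.1, 7 of 20394 protein-coding genes, and each was examined with 10 kb on either side, called its window below. The chromatin accessibility of these windows was compared among liver, lung, spleen, adipose, skeletal muscle, cerebellum, hypothalamus and cerebral cortex. ATAC-seq, which reads where a transposase could insert into loosely packed chromatin, was run on cryopreserved nuclei of each tissue from the same 2 adult animals, named P348 and P350. These were castrated male Yorkshire pigs and littermates, which limits how far the spread between them stands for pigs in general, and no treatment or allele was named for any group. There was thus 1 library per tissue and animal, 16 in all.

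Clotting runs as a cascade of proteases that ends when thrombin, cut from prothrombin, turns soluble fibrinogen into fibrin. Plasmin, cut from plasminogen, later dissolves the fibrin, and the serpins bind and stop the proteases. All of these proteins are secreted into plasma mainly by hepatocytes, and open chromatin at a gene's start and at distal regions is a usual feature of a gene in use.

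The 16 peak lists held 99960 to 217308 peaks and covered 64.1 to 155.6 Mb, and the 2 liver lists held 113682 and 139307 peaks over 64.1 and 87.1 Mb. Levels are therefore given as peak bases per Mb, the bases of a window under peaks per Mb under all peaks of that library. The lists hold no read counts, so the read depth behind a peak is unknown. Of 21 marker genes used to check the tissue labels, 10 had their highest level in the labelled tissue, among them both liver markers (ALB, 91.6 peak bases per Mb in liver against at most 25.8 in another tissue, and APOH, 23.7 against 16.2) and all 3 skeletal muscle markers. APOH was high in 1 animal only, at 40.4 in liver P348 and 6.90 in liver P350 against up to 20.3 in cerebral cortex. No adipose or spleen marker ranked first in its own tissue, and the markers of the other tissues did so in part. For 2 markers the labelled tissue was in the lower 4 ranks. TLX1 ranked 8 in spleen (13.5, against 33.4 in the highest other tissue) and ZIC1 ranked 7 in cerebellum (42.0 against 79.4). In bulk tissue, fewer cells of a type and less open chromatin per cell cannot be told apart.

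FGG, FGA and FGB lie next to each other on chromosome 8 and were first taken as one locus, chr8:74543040-74617409, 74.37 kb with the 10 kb flanks. FGG (gene ID 403164, plus strand) starts at its left, FGA (gene ID 100626178, plus strand) follows after a gap of 12.718 kb, and FGB (gene ID 100514354, minus strand) faces them after a further 13.967 kb. The 250 bases upstream of each annotated 5′ end are shown because peaks of liver libraries lay there and because all 3 contain the 8-base pattern TTGCNNAA, known as a C/EBP motif. They are from the Sscrofa11.1 genome, 5′ to 3′ on the strand of the gene, with matches to the searched motifs in capitals. The FGG sequence is chr8:74552790-74553039, the FGA sequence chr8:74574620-74574869 and the FGB sequence chr8:74607410-74607659.
FGG: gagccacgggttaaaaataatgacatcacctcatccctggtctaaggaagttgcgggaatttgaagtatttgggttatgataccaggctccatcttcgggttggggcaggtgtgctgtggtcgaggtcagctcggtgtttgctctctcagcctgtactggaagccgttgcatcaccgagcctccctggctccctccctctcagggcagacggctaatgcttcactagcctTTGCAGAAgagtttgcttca
FGA: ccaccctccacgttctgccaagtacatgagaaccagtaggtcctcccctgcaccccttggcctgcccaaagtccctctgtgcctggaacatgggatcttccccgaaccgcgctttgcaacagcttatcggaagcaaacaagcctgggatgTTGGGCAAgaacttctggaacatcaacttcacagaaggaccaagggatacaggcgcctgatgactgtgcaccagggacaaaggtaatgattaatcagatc
FGB: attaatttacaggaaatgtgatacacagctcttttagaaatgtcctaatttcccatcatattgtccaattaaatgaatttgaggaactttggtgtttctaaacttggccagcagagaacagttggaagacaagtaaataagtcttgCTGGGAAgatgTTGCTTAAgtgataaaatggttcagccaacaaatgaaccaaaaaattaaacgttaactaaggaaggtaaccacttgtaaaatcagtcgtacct
The C/EBP match lay 20 to 13 bases before the FGG 5′ end, 100 to 93 bases before that of FGA (on the opposite strand) and 93 to 86 bases before that of FGB. The second match at FGB, CTGGGAA, is an interleukin 6 response element and lay 104 to 98 bases upstream, next to the C/EBP match and not overlapping it. On either strand, TTGCNNAA occurred in 8.34% and CTGGGAA in 12.6% of the 20380 upstream sequences of the same length. A match describes the letters only.

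Liver stood apart from every other tissue over the fibrinogen locus. Peak bases per Mb were 179.7 in liver P348 and 115 in liver P350, against 12.1 at the lowest, 23.7 at the median and 48.5 at the highest among the other 14 libraries, so the groups did not overlap. The means were 147 ± 45.6 (SD, n = 2) in liver and 27.3 ± 13.6 (SD, n = 14) elsewhere. The difference of 120.2 had p = 0.00833 in an exact two-sided permutation test over the 120 ways to choose 2 of the 16 libraries, the smallest p this test can give. This test, like that on peak numbers below, takes single libraries as units. The other 14 are pairs from 7 tissues, so p does not measure the spread among tissues. The means of those 7 tissues had an SD of 11.5. Peaks covered 15.5% and 13.5% of the locus in the liver libraries and between 1.09% and 9.65% in the others. After liver, the tissue means ran from adipose (45.4 peak bases per Mb) over cerebellum (38.6), hypothalamus (29.6), spleen (23.7), lung (23.4) and cerebral cortex (17.9) to skeletal muscle (12.4). The ranges of neighbours in that order overlapped from adipose to lung, while cerebral cortex lay below lung and skeletal muscle below cerebral cortex.

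**Figure D1:**
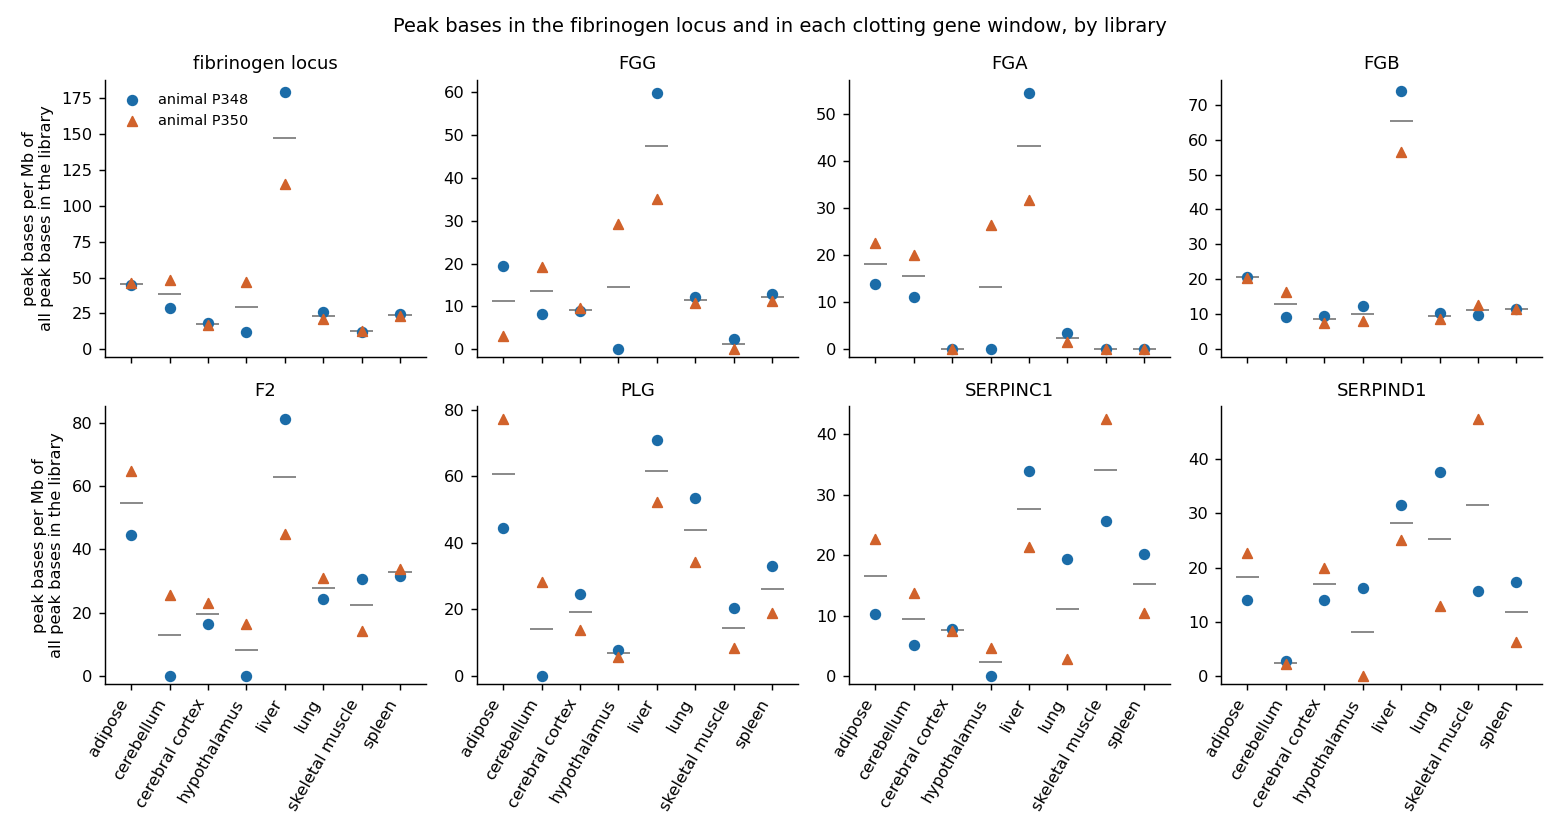
Peak bases per Mb of all peak bases (vertical axis) in the fibrinogen locus and in each gene window, for 8 tissues (horizontal axis), with circles for animal P348, triangles for animal P350 and grey lines for the mean of both. In the locus and in the FGG, FGA and FGB windows both liver libraries lie above the other 14, while in the other 4 windows liver shares its range with adipose, lung or skeletal muscle.

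The number of peaks separated the tissues less than their extent did. Each liver library had 13 peaks in the locus, against a mean of 5.29 ± 3.43 (SD, n = 14) elsewhere (exact two-sided permutation test, difference 7.71, p = 0.025), but cerebellum P350 had 14. Those cerebellar peaks had a median fold of 2.89 over the local background, against 3.59 in liver P348 and 3.08 in liver P350. Counting only peaks with a q-value under 0.0001, the liver libraries had 9 and 6 in the locus and no other library had more than 3. Without liver P348 or without liver P350, the test over the 15 remaining libraries gave p = 0.0667 for peak bases, the smallest this exact permutation test then allows, with differences of 87.9 and 152, and p = 0.133 for the number of peaks.

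Merging the peaks of all libraries where they touched gave 21 regions in the locus. Of these, 11 were open in both liver libraries, a count given without the share of all regions. The strongest of these at a fibrinogen gene was the region over the FGG 5′ end (chr8:74552762-74553432, reaching a coding exon), with a fold of 8.54 in liver P348 and 7.55 in liver P350. The same region was called in 5 of the other libraries, from cerebellum, cerebral cortex and lung, with a fold of at most 2.89. The region over the FGA 5′ end (chr8:74574375-74575340) had folds of 5.56 and 4.04 in liver and at most 2.98 in the 5 other libraries that had it. A peak over the FGB 5′ end (chr8:74607270-74607515, 246 bases) was found in liver P348 alone, with a fold of 3.27.

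Of the 21 regions, 3 were open in both liver libraries and in no other library, where 0.856% of the regions in all gene windows were. All 3 were intergenic. They lay beyond the 3′ end of FGG (chr8:74562361-74563196, folds 2.74 and 2.70), between FGG and FGA 7899 bp before the FGA start (chr8:74566432-74566971, folds 3.63 and 3.03) and 2124 bp upstream of FGB (chr8:74609533-74610334, folds 3.22 and 2.27). Their folds stayed below those at the FGG and FGA starts. One region was open in all 16 libraries, at the start of the neighbouring gene PLRG1, a pre-mRNA splicing factor (chr8:74613891-74615392), with folds of 9.79 and 8.88 in liver and up to 13.1 elsewhere. It lay inside the FGB window and gave that window its strongest peak in every tissue. A site 8391 bp upstream of FGG was open in both liver and 10 other libraries, with folds of up to 4.53 in liver and 5.35 elsewhere. A site in an FGG intron was open in both liver and 11 other libraries, with folds of up to 3.59 in liver and 5.36 elsewhere.

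**Figure D2:**
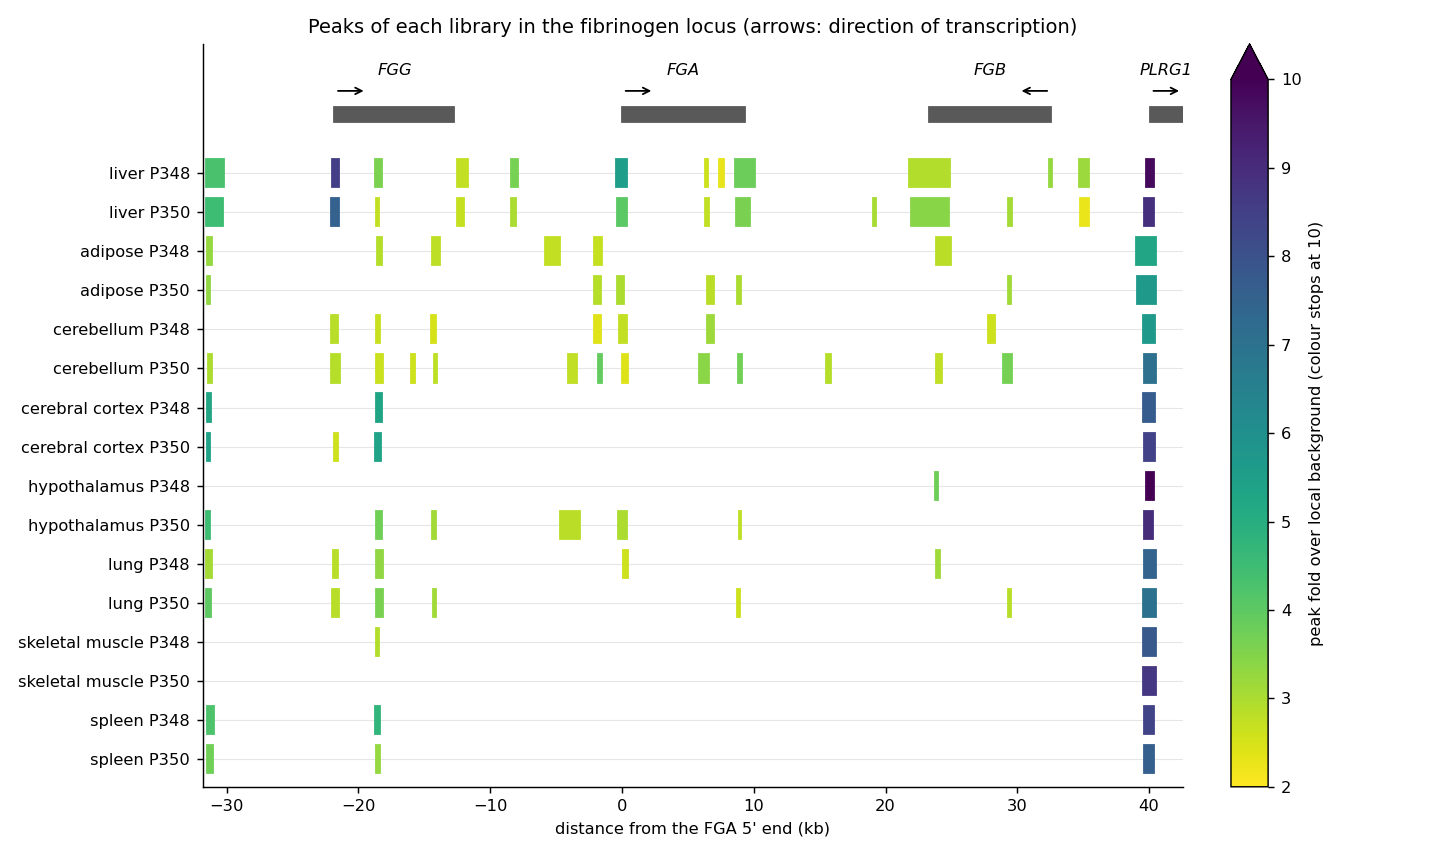
Peaks of the 16 libraries (rows) along the fibrinogen locus, with distance from the FGA 5′ end in kb on the horizontal axis, grey bars for the genes and colour for the fold of each peak. The liver rows hold 13 peaks each, darkest among the 3 fibrinogen genes at the FGG start (folds 8.54 and 7.55), and the PLRG1 start at the right is open in every row.

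Taken one by one, the fibrinogen genes had the largest liver differences of the 7. For each gene, limma compared liver with the mean of the other 7 tissues on log2(peak bases per Mb + 5), a scale that understates changes of low values, and a gene was called at an adjusted p (Benjamini-Hochberg over the 19638 genes tested) under 0.05. FGA and FGB, whose windows overlap in part, were called higher in liver, 2 of 7, where 0.677% of all genes tested were called higher. The median difference of all genes was 0.13 on this log2 scale and that of the 7 genes was 1.40.

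FGB, the β chain, was at 73.8 and 56.5 peak bases per Mb in liver P348 and P350 and at 7.62, 10.9 and 20.7 (lowest, median and highest) in the other libraries. Its log2 difference was 2.06 ± 0.22 (SE, limma adjusted p = 0.00256). All of these FGB values include the peak at the PLRG1 start, which every library had. It was the only peak of the FGB window in both libraries of cerebral cortex, skeletal muscle and spleen, and in hypothalamus P350. With peaks near another gene's start left out, the FGB difference was 3.15 (limma adjusted p = 0.000569). FGA, the α chain whose ends thrombin cuts to start fibrin assembly, was at 54.4 and 31.6 in liver and at 0, 0.762 and 26.4 elsewhere. Of the other 14 libraries, 7 had no peak in its window, among them both from cerebral cortex, skeletal muscle and spleen. The FGA difference was 2.35 ± 0.46 (SE, limma adjusted p = 0.0321). FGG, the γ chain, was at 59.9 and 35.0 in liver and at 0, 10.2 and 29.1 elsewhere, without overlap, but its difference of 1.92 ± 0.54 (SE) did not pass the adjustment (limma adjusted p = 0.111). Both liver libraries lay above all others in these 3 windows of the 7, where 1.18% of all genes tested showed such a separation. The windows of neighbouring fibrinogen genes overlap and share peaks, so the 3 are not separate cases. Without liver P348 limma called no gene of the 19632 tested (911 were higher at an unadjusted p under 0.05), with an adjusted p of 0.0808 for FGB and 0.455 for FGA. The FGA call was also lost without liver P350, adipose P348, or any 1 library of cerebral cortex, lung or skeletal muscle (limma adjusted p = 0.0516 to 0.0989). FGG was called without either hypothalamus library (limma adjusted p = 0.0465 and 0.0192).

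The 2 protease precursors had liver levels that other tissues shared. F2 (gene ID 100144442, chr2:15793257-15819151, minus strand) was at 81.1 and 44.8 peak bases per Mb in liver and at 0, 24.9 and 64.7 elsewhere. Adipose was close, at 44.4 and 64.7, and its range overlapped that of liver. Peaks covered 11.3% and 8.51% of the F2 window in liver P348 and P350 and 12.1% and 11.6% in adipose. They covered at most 9.79% in the other tissues. The log2 difference of F2 was 1.40 ± 0.56 (SE, limma adjusted p = 0.257).

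PLG (gene ID 733660, chr1:7062399-7109521, plus strand) was at 70.9 and 52.2 in liver and at 0, 22.6 and 77.1 elsewhere, with adipose at 44.4 and 77.1 and lung at 34.3 and 53.3. Its difference was 1.40 ± 0.50 (SE, limma adjusted p = 0.208), and it was called only without cerebellum P350 (limma adjusted p = 0.0271) among the fits that left out 1 library. Peaks covered 6.77% and 6.78% of the PLG window in liver P348 and P350, 8.27% and 9.43% in adipose and 9.23% and 7.40% in lung. They covered at most 6.24% in the other tissues. In adipose, the F2 window held peaks with a fold of at most 2.84, against 4.99 and 4.07 for the strongest peak of the liver libraries. In lung the strongest F2 window peaks had folds of 4.64 and 4.53. The highest fold exceeded that of the weaker liver library in 6 other libraries for F2 and in 4 for PLG. The strongest F2 peak outside liver, in spleen (6.21), belonged to an intergenic region 26393 bp from the F2 start, beyond its 3′ end (chr2:15791372-15792730), that was open in both liver and 8 other libraries.

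By mean peak bases, the serpins were highest in skeletal muscle. SERPINC1 (gene ID 100125972, chr9:116181988-116193100, minus strand) was at 33.9 and 21.4 in liver and at 0, 10.3 and 42.5 elsewhere, with skeletal muscle at 25.7 and 42.5. SERPIND1 (gene ID 100155945, chr14:50427121-50436470, plus strand) was at 31.5 and 25.0 in liver and at 0, 14.8 and 47.4 elsewhere, with skeletal muscle at 15.6 and 47.4. Skeletal muscle P348 thus lay below both liver libraries here, and lung was at 37.6 in P348 and 12.9 in P350. In both windows the ranges of liver and skeletal muscle overlapped. The liver differences were 1.01 ± 0.41 for SERPINC1 and 0.90 ± 0.48 for SERPIND1 (SE, limma adjusted p = 0.262 and 0.397). The muscle peaks had lower folds than those of liver. The strongest had a fold of 3.0 in the SERPINC1 window and 2.93 in the SERPIND1 window, against 9.11 and 7.26 in liver P348 and 6.10 and 4.68 in liver P350. By −log10 q, however, the strongest SERPIND1 window peak of skeletal muscle P348, at 10.3, exceeded the 8.86 of liver P350. SERPIND1 lies within the gene PI4KA, a lipid kinase on the opposite strand, so peaks in its window cannot be assigned to one of the 2 genes.

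Peak strength was therefore looked at separately. With the peaks limited to those of q under 0.0001, limma called 6 of the 7 genes higher in liver, where 5.25% of the 18335 genes then tested were called higher. SERPIND1 had a log2 difference of 3.57 ± 0.27 (SE, limma adjusted p = 3.35e-05), SERPINC1 of 3.31 ± 0.41 (SE, limma adjusted p = 0.000894) and F2 of 2.68 ± 0.40 (SE, limma adjusted p = 0.00305). FGG, FGA and FGB were at 3.08, 3.73 and 1.83. FGA had such peaks in 1 library outside liver, so it passed the filter of 2 libraries only through liver. Of the 6 genes that passed on the other tissues alone, 5 were called, where 4.77% of the 18180 such genes were. FGB, among the 5, passed there only through the peak at the PLRG1 start. No other peak of its window outside liver had a q under 0.0001. PLG was not called, with a difference of 1.39 ± 0.74 (SE, limma adjusted p = 0.324). With the milder limit of 0.01, FGA, FGB, FGG, PLG and SERPINC1 were called, beside 2.15% of all genes tested. The calls thus depended on the peaks counted. Every estimate was above 0 at each limit, where 63.5% of all genes tested were with all peaks. The peaks at a stricter limit are part of those at a milder one, so these signs are not independent.

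**Figure D3:**
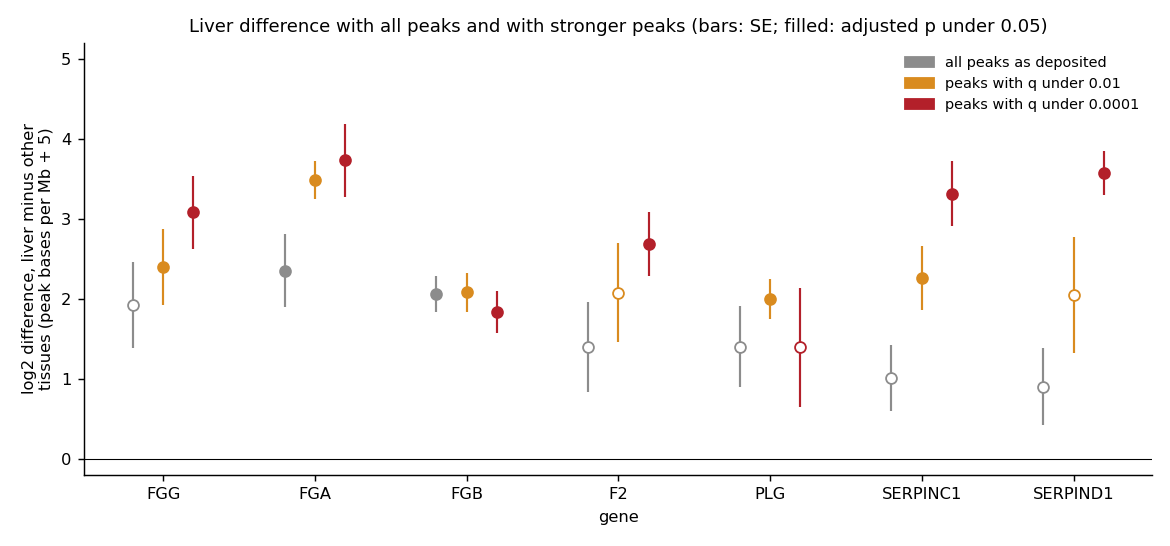
Log2 difference of peak bases per Mb plus 5, liver minus the mean of the other tissues (vertical axis), for each of the 7 genes with all peaks (grey), with peaks of q under 0.01 (orange) and under 0.0001 (red), bars giving the SE and filled points an adjusted p under 0.05. From grey to red, SERPINC1 goes from 1.01 to 3.31 and SERPIND1 from 0.90 to 3.57, while FGB goes from 2.06 to 1.83.

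Transcription start sites were compared next. A peak within 2 kb of an annotated start was present in both liver libraries for 6 of the 7 genes, where 74.5% of all 20394 genes had one, a share near that of the 7. The highest fold near the start was greater in both liver libraries than in every other library for those 6 genes, FGB being the exception, where 16.1% of all genes showed this. At FGG the folds were 8.54 and 7.55 in liver and 2.61 to 2.89 in 5 other libraries. At SERPIND1 they were 6.84 and 3.51 in liver, the former from an intronic peak 1941 bp into the gene, and 2.46 and 2.68 in the 2 skeletal muscle libraries. The 2 spleen libraries had no peak near the start of any of the 7 genes.

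F2 had start-site folds of 4.99 and 3.45 in liver and 2.27 to 2.82 in 7 other libraries. SERPINC1 had 4.60 and 3.89 in liver and 2.54 and 2.62 in one cerebellum and one lung library. For FGA the gap was narrow, with 4.04 in liver P350 and 3.94 in cerebellum P350, where the peak lay 1507 bp upstream. Counting start-site peaks with a q-value under 0.0001, F2, FGG, SERPINC1 and SERPIND1 had one in both liver libraries and in no other library, 4 of 7, where 0.647% of all genes did.

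**Figure D4:**
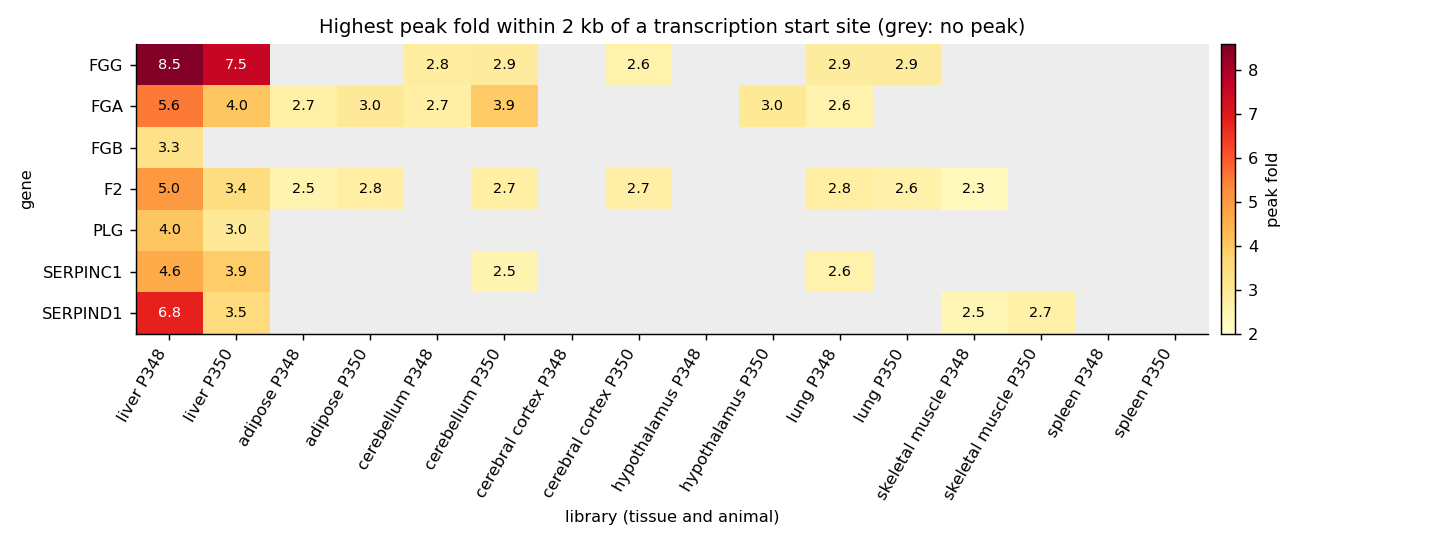
Highest fold of a peak within 2 kb of a transcription start site, for the 7 genes (rows) in the 16 libraries (columns), grey where there was no peak. The 2 liver columns are the strongest in the rows of FGG, FGA, F2, PLG, SERPINC1 and SERPIND1, and the FGB row has 1 peak, in liver P348.

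PLG alone had a peak of any strength near its start in both liver libraries and in no other library, 1 of 7, where 0.108% of all genes did. Without liver P350 the count was 2, since FGB then had its start-site peak in the remaining liver library alone. The region (chr1:7061049-7062491) ran from upstream into a coding exon, with folds of 4.04 and 2.97. The 250 bases before the annotated PLG 5′ end, chr1:7062149-7062398 on the plus strand of Sscrofa11.1, lie within it and are shown for that reason, with the motif matches in capitals.
PLG: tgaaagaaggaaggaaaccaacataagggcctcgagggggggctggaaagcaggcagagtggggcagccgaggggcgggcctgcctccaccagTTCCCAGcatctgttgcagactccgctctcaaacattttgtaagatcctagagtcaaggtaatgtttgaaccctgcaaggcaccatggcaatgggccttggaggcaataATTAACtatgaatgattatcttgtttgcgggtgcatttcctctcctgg
The first match, on the opposite strand, is to the interleukin 6 response element CTGGGAA, 157 to 151 bases upstream. The second, also on the opposite strand, is to GTTAAT, an HNF1 motif, 48 to 43 bases upstream. This HNF1 motif occurred in 6.14% of all upstream sequences and was also found before F2, 17 to 12 bases upstream. SERPINC1 had the C/EBP pattern 164 to 157 bases upstream. None of the 7 sequences contained the FOXA pattern TGTTTAC, the HNF4 pattern CAAAGTCCA or the short motif TATAAA of the core promoter on either strand, patterns present in 2.30%, 0.314% and 10.2% of all upstream sequences. The 7 sequences held 1 to 8 CpG dinucleotides in 250 bases, each fewer than the median of 11 over all genes.

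Across the 7 windows the merged peaks formed 79 regions, 27 of them open in both liver libraries. Both libraries shared 16 regions in adipose, 16 in lung, 11 in spleen and 10 in skeletal muscle. In cerebellum and cerebral cortex they shared 9 each, and in hypothalamus 2. No share of all regions is given beside these counts, which also depend on how often the 2 lists of a tissue agree. Open in both liver libraries and in no other library were 8 of the 79, where 0.856% of the 306571 regions in all gene windows were. Regions in these windows open in both libraries of one other tissue and nowhere else numbered 2 for lung, 1 for skeletal muscle, 1 for spleen and 0 for the 4 other tissues. The shares of all regions were 0.806% for lung, 2.72% for skeletal muscle and 0.894% for spleen, and 0.495% for adipose, 2.02% for cerebellum, 1.57% for cerebral cortex and 0.0630% for hypothalamus. Of the 8 liver regions, 3 were intergenic, 3 intronic, 1 in a non-coding exon and 1 reached a coding exon. Of the 41 regions with no liver peak, 15 reached a coding exon, 16 were intronic and their highest fold was 4.37.

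Of the 8, 3 lay in the SERPIND1 window. The first lay 7650 bp upstream of SERPIND1 within a PI4KA intron, with folds of 7.26 and 4.68, the strongest of the 8 in the weaker liver library. The second covered the SERPIND1 5′ end (chr14:50426888-50427244, folds 4.76 and 3.51) and the third an intron of the gene (chr14:50429062-50429456, folds 6.84 and 3.65). The sequence of the first, 294 bases at chr14:50419178-50419471 on the plus strand of Sscrofa11.1, is given because it was the strongest distal region seen in liver only. None of the 6 motifs matched it, so it has no capitals.
SERPIND1 distal region: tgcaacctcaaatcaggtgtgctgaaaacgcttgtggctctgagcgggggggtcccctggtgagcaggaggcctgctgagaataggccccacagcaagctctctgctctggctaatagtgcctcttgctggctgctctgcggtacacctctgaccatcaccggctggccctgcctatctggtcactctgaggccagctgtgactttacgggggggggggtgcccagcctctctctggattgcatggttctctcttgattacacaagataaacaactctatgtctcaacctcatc
It was called in no other library, and the next region to its right, reaching a PI4KA coding exon, was open in 9 other libraries and in neither liver library.

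PLG had a second liver-only region in an intron 8061 bp from its start (chr1:7070460-7071323), with folds of 5.54 and 4.33. By contrast, a site 4329 bp upstream of PLG (chr1:7057118-7058070) was open in both liver and 13 other libraries, with folds of 6.91 and 4.74 in liver and up to 5.19 elsewhere. SERPINC1 had no liver-only region, but its strongest one, reaching a coding exon 2222 bp into the gene (chr9:116190300-116190878), had folds of 9.11 and 6.10 in liver and at most 3.15 in 5 other libraries. F2 had none either, and of its regions open in both liver libraries the intergenic one beyond its 3′ end had the highest fold in the weaker liver library, 4.07.

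With each tissue set against the other 7 in the same limma fit, calls outside liver were made in cerebellum and skeletal muscle only. F2, PLG and SERPIND1 were called lower in cerebellum, 3 of 7, but 60.2% of all genes tested were called lower there and the median of all genes was -0.82 (log2). In skeletal muscle, SERPINC1 was called higher (1.30 ± 0.41, SE, limma adjusted p = 0.0217), where 29.9% of all genes were, and FGA and FGG were called lower, where 14.2% were. The FGA and FGG differences in skeletal muscle were -1.33 ± 0.46 and -1.60 ± 0.54 (SE, limma adjusted p = 0.0319 and 0.0283). In adipose, cerebral cortex, hypothalamus, lung and spleen limma called none of the 7. At an unadjusted p under 0.05, F2, FGA and PLG were higher in adipose, and lower were FGA and FGB in cerebral cortex, F2, PLG and SERPINC1 in hypothalamus, FGB in lung and FGA in spleen. Of all genes tested, 15.7% were higher in adipose by that measure, and lower were 5.10% in cerebral cortex, 12.8% in hypothalamus, 7.19% in lung and 7.58% in spleen. The moderated F test over the 8 tissues called 5 of the 7 (not FGG or SERPIND1), where 71.5% of all genes tested were called, a share close to that of the 7.

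Other clotting genes were looked at as lists. Of 20 further genes of plasma clotting proteins made mainly by hepatocytes, 4 were called higher in liver and none lower, with 13 higher at an unadjusted p under 0.05. Over all genes tested, 0.677% were called higher, 11.6% were higher at an unadjusted p under 0.05 and 63.5% of estimates were above 0. The 19 estimates above 0 left out F5 (-0.27 ± 0.38, SE). The largest were HRG, histidine-rich glycoprotein (2.01 ± 0.34, SE, limma adjusted p = 0.0181), APOH, β2-glycoprotein I (1.89 ± 0.34, SE, limma adjusted p = 0.0237), and F11, coagulation factor XI (1.75 ± 0.35, SE, limma adjusted p = 0.0346). The fourth was KLKB1, plasma prekallikrein, at 1.59 ± 0.24 (SE). The list median was 1.06, beside 0.13 for all genes tested. Without liver P348 limma called none of them. APOH also served as a liver marker in the label check, and its level in liver P350 lay below both cerebral cortex libraries.

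Of 22 clotting genes known mainly from vessel wall, platelets or other cells, limma called none, and 4 were higher at an unadjusted p under 0.05, where 11.6% of all genes were. Their median was 0.29. The highest was GP1BA, a platelet receptor subunit for von Willebrand factor, at 0.94 ± 0.27 (SE, limma adjusted p = 0.116). With peaks of q under 0.0001, 9 of the hepatocyte genes and 3 of this list were called higher in liver, beside 5.25% of all genes tested. APOH and SERPINA5 among the 9 passed the filter only through liver. The 3 of this list, chosen for naming after their values were seen, were THBD, the thrombin receptor thrombomodulin (1.99 ± 0.45, SE), F2RL1, a protease-activated receptor (1.90 ± 0.37, SE), and ANXA2, a cell-surface binding protein for plasminogen (1.10 ± 0.21, SE). Their limma adjusted p-values were 0.0276, 0.0128 and 0.0123.

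**Figure D5:**
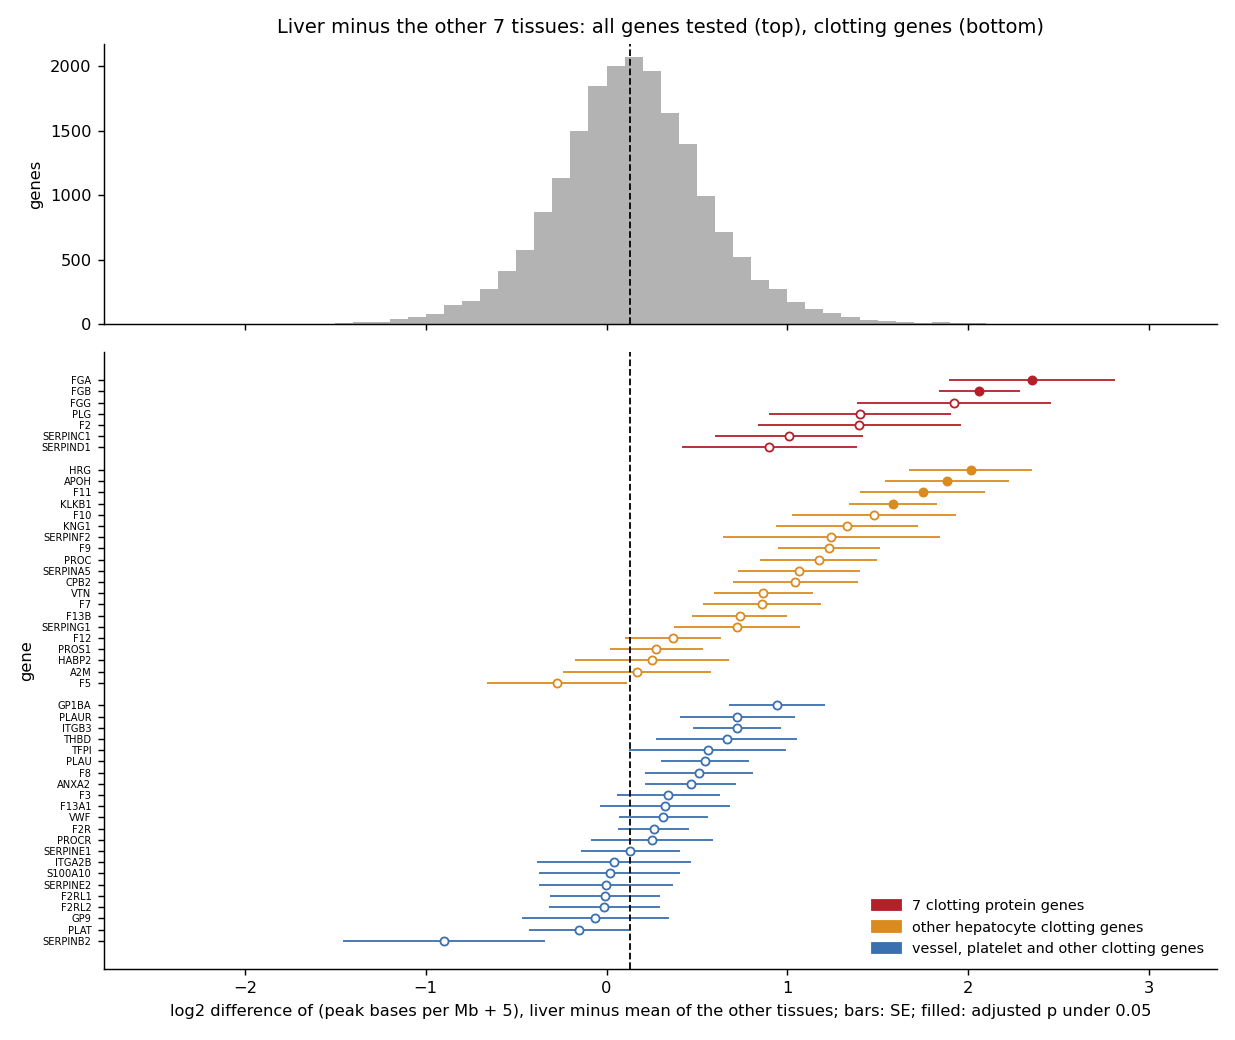
Log2 difference of peak bases per Mb plus 5, liver minus the mean of the other 7 tissues (horizontal axis), as a histogram of all 19638 genes tested (top) and for the 7 genes and both lists with SE bars (bottom). The dashed line marks the median of all genes, 0.13, filled points passed an adjusted p of 0.05, and the 7 genes run from 0.90 (SERPIND1) to 2.35 (FGA).

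The 7 windows did not vary as one across the 16 libraries. On the log2 scale, Pearson's r between pairs was highest for F2 and PLG (0.85), was 0.57 to 0.71 within the fibrinogen genes, whose windows overlap in part, and was lowest for FGG and SERPIND1 (-0.21). These are descriptions over libraries that share animals and list lengths. Outside the windows, the genes most like the mean of the 7 were SRPX2 (r = 0.90), G6PC, the glucose 6-phosphatase catalytic subunit (0.90), LOC102164585 (0.87), IYD (0.85) and PYY (0.85), each over 16 libraries. G6PC was at 69.9 and 32.9 peak bases per Mb in liver and at most 32.6 elsewhere. The closest single genes were GC, the vitamin D binding protein of plasma, for FGA (0.83), LOC100519606 for FGB (0.92), LOC100519326 for FGG (0.88), HRASLS5 for F2 (0.91), LOC100156470 for PLG (0.90), STARD13 for SERPINC1 (0.86) and LOC110260110 for SERPIND1 (0.90).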

How the data were processed

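The authors deposited 1 MACS2 broad peak list per library, with a score, a fold (ratio of the peak over local background) and −log10 p- and q-values per peak. Per the submitters' processing notes they used Trim Galore 0.4.5, BWA 0.7.17, SAMtools 1.10 and Picard 2.18.17. The methods give a q limit of 0.05, but 1.54% to 16.3% of the peaks in each list had a higher q, and these were kept in the main values. A read shift for ATAC-seq is not given in the sources used here. The cattle lists were not used here. From the 16 pig lists, peak bases, peaks and highest folds were computed for each gene and 10 kb either side (Sscrofa11.1, RefSeq), and start sites were those of protein-coding transcripts. Genes with a peak in at least 2 libraries were tested with limma 3.58.1 (R 4.3.3), tissue as the only term, on log2(peak bases per Mb + 5), after tests on simulated data. The fibrinogen locus was tested by exact permutation. The same 2 animals gave every tissue, so tissues are paired by animal, per the labels; deviations of same-animal libraries correlated between -0.21 and 0.16 over the 28 tissue pairs (median 0.0050).

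Named genes were the 7 members, genes overlapping their windows, the 3 called genes of each list with the largest liver difference and the genes most correlated with members. Named regions were the strongest liver region per window and those open in liver alone. Chosen after their values were seen were the region at PLRG1, those over the FGA and FGB starts, the further sites at FGG and PLG, the region beside the SERPIND1 distal one, the spleen-strongest one near F2, and the genes F5, KLKB1, GP1BA, SERPINA5, THBD, F2RL1 and ANXA2. The members, lists and motifs were chosen with earlier results of these data known, so they are not independent evidence of a liver pattern. Of the hepatocyte list, PROZ and SERPINA10 had no match in the annotation. P-values describe the spread between libraries of 2 littermates. Alternatives changed the pseudocount, gene filter, window, peak measure, q limit, list length and libraries.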

Additional observations from a re-analysis of the deposited data

How the results depend on the processing

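The number of the 7 genes called higher in liver, 2, became 1 with a pseudocount of 1 and with no filter on genes, 5 with peaks of q under 0.01 and with lists of equal length, and 6 with peaks of q under 0.0001. With 1 library left out it was 0 to 3. The hepatocyte list, with 4 calls, had 2 with a pseudocount of 1 and with the number of peaks as the measure, 9 with peaks of q under 0.0001 and 0 to 5 with 1 library left out, and the vessel and platelet list, with 0 calls, had 3 with peaks of q under 0.0001. Genes with a start-site peak in liver alone, 1, became 2 with peaks of q under 0.01, with lists of equal length and within 500 bp of the start, 4 with peaks of q under 0.0001, and 1 to 2 with 1 library left out. The difference over the fibrinogen locus ranged from 87.9 to 152 peak bases per Mb and the difference in its number of peaks from 7.38 to 8.38 with 1 library left out, and both passed the threshold except where a liver library was left out. With the animal as a replicate block, limma called 2 of the 7 genes, and the block changed no call on the 7 genes. For the locus, 1 library per animal (a replicate block of 64 choices) gave p = 0.0156 for peak bases (difference 120.2) and p = 0.0312 for peaks (difference 7.71) in the exact permutation test. Over all genes tested, the 133 called higher in liver became 75 with a pseudocount of 1, 239 with a pseudocount of 20, 70 with 50 kb either side, 299 with lists of equal length, 418 and 963 with the q limits of 0.01 and 0.0001, and 0 to 246 with 1 library left out. FGG was also called with a pseudocount of 20 (1.17, limma adjusted p = 0.0430) and with 50 kb either side (limma adjusted p = 0.00686). With 50 kb either side, SERPIND1 was at 0.04 (limma adjusted p = 0.964), SERPINC1 at 0.42, PLG at 0.56 and F2 at 0.73, though no estimate of the 7 genes changed sign under any of these alternatives. The difference in peak bases over the fibrinogen locus was 178 with peaks of q under 0.01 and 216.6 with peaks of q under 0.0001. The causes of these changes were not tested. The lists give no depth, and the read numbers per data set described for the study's supplement were not used here. This limits how weak peaks can be read.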
